A study of Mus musculus with 6 samples.

Results

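The contractile machinery of smooth muscle was examined through 10 genes that were chosen by name from the 34745 genes counted in MLE-12 cells: Acta2, Actg2, Tagln, Myh11, Cnn1, Des, Myl9, Lmod1, Myocd and Tpm2. They were chosen because their counts in a single library, NR4A1 overexpression replicate 2, were already known to be high. The comparison of that library with the others is therefore given as a description and not as a test. MLE-12 is a mouse lung epithelial line that was immortalized with the SV40 large T antigen under the surfactant protein C promoter. The cells were transfected with a Lipofectamine reagent, either with the NR4A1 open reading frame in the plasmid pCMV-SPORT6 (NR4A1 overexpression) or with the empty pCMV-SPORT6 vector (vector control), and both groups share the line, the plasmid backbone and the transfection. There were 3 libraries in each group, which carry the same replicate numbers 1 to 3. The time from transfection to RNA extraction is not given in the sources used here, and nothing says whether the 3 samples of a group came from separate cultures, so p-values measure the spread between these samples, which may be technical.

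Smooth muscle shortens when myosin filaments pull on actin filaments, and the fibers of these proteins are built from forms that other cells make in small amounts or not at all. Acta2 and Actg2 encode the vascular and enteric smooth muscle actins, Myh11 the smooth muscle myosin heavy chain and Myl9 a regulatory myosin light chain. Tpm2, Cnn1 and Tagln encode the actin-binding proteins beta-tropomyosin, calponin 1 and transgelin, Lmod1 a nucleator of actin filaments and Des the intermediate filament protein desmin. Myocd encodes myocardin, a coactivator that binds serum response factor (SRF) at CArG boxes, short stretches of A and T between CC and GG, in the promoters of many of these genes. In the lung these genes mark airway and vascular smooth muscle but are not all confined to it. Acta2 and Tagln, among others, are also made by myofibroblasts and pericytes.

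To show what a CArG box looks like here, promoters were read from a set taken from RefSeq (GRCm38.p6). The set at hand held 6 of the 10 genes: Acta2, Cnn1, Des, Lmod1, Myl9 and Tpm2. Each window covered 300 bases, from 250 before to 50 after the RefSeq start of the gene, and both strands were covered because the motif reads the same on each. The Myl9 window held 1 exact CArG box, and such a box occurs in 1.63% of 32851 promoters of this length. With at most 1 letter off, Acta2, Lmod1 and Myl9 held 2 matches each and Cnn1, Des and Tpm2 held 0, and 21.1% of all promoters held at least 1. The matches in Acta2, the gene with the highest count, and in Myl9 are shown with 10 matched bases in capitals, on the strand of the gene. The first Acta2 stretch is chr19:34255438-34255467 on the minus strand, its match starting 84 bases before the gene, and the second is chr19:34255388-34255417, starting 34 bases before it. The Myl9 stretches are chr2:156775293-156775322 and chr2:156775355-156775384 on the plus strand, their matches starting 161 and 99 bases before the gene. These distances count from the RefSeq starts, which for Acta2 and Myl9 differ from the gene bounds given further below.
Acta2, first match, 1 letter off: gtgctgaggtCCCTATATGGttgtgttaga
Acta2, second match, 1 letter off: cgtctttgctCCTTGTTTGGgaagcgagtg
Myl9, exact match: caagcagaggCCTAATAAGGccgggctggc
Myl9, 1 letter off: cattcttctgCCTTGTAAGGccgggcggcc
A match is a stretch of letters and was not tested for binding.

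Actins are so alike that reads of one could be counted on another, so the shared sequence was measured in GENCODE M21 transcripts (GRCm38). The coding sequences of Acta2 and Actg2 are 84.4% identical, and Acta2 is 83.3% identical to Actb, the cytoplasmic beta-actin. The longest run that the coding sequences of Acta2 and Actg2 share is 29 bases. Of all 50-base stretches of the Acta2 transcripts, 0.326% also occur in transcripts of another gene. The share was 0.340% for Myh11, all of it shared with Myh9, 0.0155% for Myocd and 0 for the other 7 genes. The window of 30 coding bases in which both smooth muscle actins differ most, within 1 exon of each, holds 10 differing bases. It lies in exon 8 of both genes, at chr19:34243459-34243488 in Acta2 and at chr6:83516410-83516439 in Actg2, each on the minus strand of GRCm38, with the differing bases in capitals.
Acta2: agcGggCatCcaCgaaacCacCtaTaaCAG
Actg2: agcTggAatTcaTgaaacAacAtaCaaTTC
Tagln overlaps the end of Pcsk7, a proprotein convertase gene on the other strand, which had between 738 and 1077 counts in the 6 libraries. Des overlaps Gm15179 on the other strand, which had 0 counts in each. Whether the counting used the strand is not given in the sources used here.

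The libraries held between 15019038 and 17574340 counts, so that 3 counts correspond to between 0.170 and 0.203 CPM (counts scaled to a common library size). The CPM were taken over the library total of all genes times its TMM factor, which came from the genes that passed the count filter. This floor and the intervals below cover counting error only. Nr4a1, the transfected gene, had 50660, 60093 and 68555 reads in NR4A1 overexpression replicates 1 to 3 against 428, 510 and 463 in the controls, and replicate 2 thus matched its label. NR4A1 overexpression replicate 2 stood apart on the first principal component, which held 46.0% of the variance, with a score of 57.4 against -20.8 to 2.24 in the other 5 libraries. Of the markers of lung epithelium, the keratins Krt8 and Krt19, the transcription factor Nkx2-1 and the surfactant protein gene Sftpc had at least 946 counts in every library, whereas Sftpa1 and Scgb1a1 had 0 counts in each and Epcam had between 2 and 22.

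All 10 genes had their highest level in NR4A1 overexpression replicate 2. In all, 5163 of the 19516 genes with a count (26.5%) were highest in that library. The 10 genes together were counted 6504 times there, which was 0.0384% of the library. In the other libraries they were counted 89 times in NR4A1 overexpression replicate 1, 144 times in replicate 3 and 158, 136 and 149 times in vector control replicates 1, 2 and 3. At the threshold of 10-fold above every other library, with libraries at or under 3 counts set to 3, 5 of the 10 genes passed, against 278 of 19516 genes (1.42%). They were Acta2, Tagln, Lmod1, Tpm2 and Actg2. In each of the other 5 libraries 0 of the 10 genes passed, where the share of all genes that did so was 0.0256% for vector control replicate 1, 0.00512% for replicate 2 of that group and 0.0% for the 3 left. The gene nearest above this threshold was Actg2 with 11.4-fold and the nearest below it was Myh11 with 9.43-fold. The median ratio to the highest other library was 10.4 over the 10 genes and 0.839 over all genes with a count.

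Of the thin filament proteins, Acta2 (ENSMUSG00000035783, chromosome 19 from 34241090 to 34255336) encodes the actin that gives vascular smooth muscle its thin filaments. Acta2 had 3, 3841 and 7 reads in NR4A1 overexpression replicates 1 to 3, in that order, and 15, 13 and 15 reads in vector control replicates 1 to 3. Replicate 2 was 263-fold above the next library, vector control replicate 1 (95% counting interval 159 to 470), while replicates 1 and 3 of the same group lay below all vector controls. Actg2 (chromosome 6 from 83512905 to 83536265) had 39 reads in NR4A1 overexpression replicate 2 and 0 in all 5 others, and was at least 11.4-fold higher against 3 counts per library. The enteric actin was thus seen in 1 library only, and there at 0.687% of the Acta2 level per length (FPKM, which scales counts by gene length and library total). Tpm2, which lies along the actin filament and gates myosin binding (chromosome 4 from 43514711 to 43523765) had 42, 783 and 62 reads in the same order with NR4A1 and 64, 54 and 58 with the vector. Tpm2 was present in every library, and replicate 2 was 12.6-fold above the next one (interval 9.72 to 16.5). Lmod1 (chromosome 1 from 135324807 to 135368065) had 0, 90 and 0 reads with NR4A1 and 4, 0 and 0 with the vector. This nucleator of actin filaments reached 23.1-fold above vector control replicate 1 (interval 8.71 to 86.6), and the 4 libraries left had 0 counts.

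Tagln (chromosome 9 from 45929628 to 45936058), an actin-binding protein made early in smooth muscle differentiation, had 2, 1375 and 8 reads with NR4A1 and 23, 5 and 4 with the vector. Replicate 2 was 61.3-fold above vector control replicate 1 (interval 40.7 to 97.1), and 177-fold above the next library when vector control replicate 1 was left out. That control was the highest of the 5 libraries other than NR4A1 overexpression replicate 2 for 5 of the 10 genes, against 18.3% of the 18655 genes counted in those 5 libraries. Cnn1 (chromosome 9 from 22099281 to 22109630), a calponin that binds actin and slows the myosin ATPase, had 5, 40 and 6 reads with NR4A1 and 7, 4 and 3 with the vector. Its ratio to the next library was 5.86 (interval 2.60 to 15.5), and all 5 other libraries lay within a few counts of the floor.

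Of the thick filament proteins, Myl9 (chromosome 2 from 156775420 to 156781658) had 24, 237 and 53 reads with NR4A1 and 43, 51 and 59 with the vector. This regulatory light chain, whose phosphorylation starts contraction, was held by every library, and its ratio was 4.21 (interval 3.15 to 5.70). Myh11 (chromosome 16 from 14194527 to 14291408) had 3, 54 and 4 reads with NR4A1 and 1, 3 and 6 with the vector, which put replicate 2 at 9.43-fold above the next library (interval 4.06 to 26.8). Without vector control replicate 3, which was the next highest library, the ratio of Myh11 was 13.9, and 6 rather than 5 genes passed 10-fold. Des (chromosome 1 from 75360329 to 75368579), which ties the contractile units together, had the smallest ratio of the 10 genes. Des had 9, 31 and 4 reads with NR4A1 and 1, 6 and 4 with the vector, and the ratio was 3.03 to NR4A1 overexpression replicate 1 (interval 1.41 to 7.22), and 5.14 with that replicate left out. Myocd (chromosome 11 from 65176561 to 65269989), the coactivator, had 1, 14 and 0 reads with NR4A1 and 0 in each vector control. The 14 counts have a 95% counting interval of 7.65 to 23.5. Against the 3-count floor, as used for the 10-fold threshold, their ratio was 4.10. Against the 1 count of NR4A1 overexpression replicate 1 it was 12.3 (interval 1.87 to 520).

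**Figure D1:**
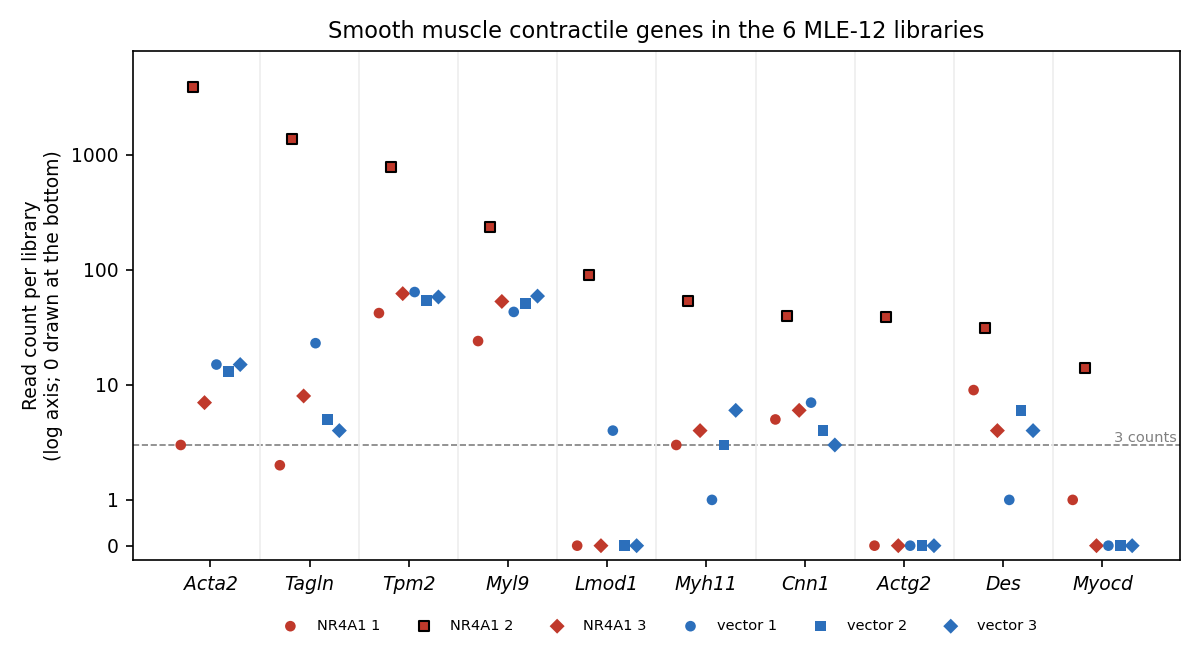
Read count of each gene (log axis, with 0 drawn at the bottom) in the 6 libraries, NR4A1 overexpression in red and vector control in blue, with the 3-count floor as a dashed line. The outlined squares of NR4A1 overexpression replicate 2 lie above the other 5 libraries for all 10 genes, from 14 counts for Myocd to 3841 for Acta2.

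The order of the genes within NR4A1 overexpression replicate 2 was set on a scale per length, as the FPKM that the authors deposited. Acta2 had 127 FPKM and Tagln 51.2 FPKM, followed by Tpm2 with 8.31 FPKM, Myl9 with 6.64 FPKM and Lmod1 with 1.35 FPKM. The lowest were Cnn1 with 0.998, Actg2 with 0.874, Myh11 with 0.481, Des with 0.420 and Myocd with 0.0672 FPKM. Acta2 and Tagln made up 80.2% of the counts of the 10 genes in that library, against 5.62% to 24.1% in the other 5. The genes are too few in counts in the other libraries for a full order, but Myl9, with 1.29 ± 0.332 FPKM, and Tpm2, with 0.598 ± 0.0635 FPKM (SD, n = 5 libraries of both groups), had higher means than Acta2 with 0.349 ± 0.170 FPKM and Tagln with 0.310 ± 0.307 FPKM. Tagln ran up to 0.842 FPKM in vector control replicate 1, above the 0.668 FPKM of Tpm2 there, so that Tagln has no set order with Acta2 or Tpm2. Myh11 was at 0.378% of the Acta2 level per length in replicate 2 and Cnn1 at 0.783%, against 1.79% to 26.9% and 15.0% to 125% in the other libraries.

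The length behind the deposited FPKM is not that of a single transcript for every gene. It was 1781 bases for Acta2, whose longest protein-coding transcript in GENCODE M21 has 2035 bases, but 5566 against 2175 bases for Tpm2 and 5902 against 1920 bases for Actb. With the longest protein-coding transcript as the length, a choice made after the data were seen, Tpm2 had 21.3 and Myl9 had 12.4 on the FPKM scale in replicate 2, and Actg2, with 1.73, passed Lmod1, with 1.35. Acta2 and Tagln stayed first and second with 111 and 50.9 on that scale.

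For 6 of these genes, a relative that is also made outside muscle was set beside it per length. In replicate 2, Acta2 reached 87.7% of the FPKM of Actb, or 25.0% on the transcript lengths, while in the other 5 libraries it lay between 0.0761% and 0.479% of the FPKM of Actb. Tagln reached 88.7% of the FPKM of Tagln2, or 46.6% on the transcript lengths, against 0.195% to 1.91% of the FPKM elsewhere. Tpm2 was at 59.6% of the FPKM of Tpm1 against 4.06% to 5.18% elsewhere, and at 26.7% on the transcript lengths. Tpm1 is itself made in smooth muscle, and against Tpm4, a tropomyosin of non-muscle cells, Tpm2 was at 1.66% of the FPKM (0.116% to 0.156% elsewhere) and at 4.05% on the transcript lengths. The place of Tpm2 thus depended on the relative chosen. The light chain Myl9 was at 12.5% of the FPKM of Myl12a in replicate 2, against 2.34% to 4.54% elsewhere, and at 8.25% of that of Myl12b, against 1.05% to 2.04%. The heavy chain Myh11 was at 0.703% of the FPKM of Myh9, the main non-muscle myosin, against 0.0128% to 0.0739% elsewhere, and at 3.16% of that of Myh10, against 0.0491% to 0.282%. Cnn1 was at 2.73% of the FPKM of Cnn2, against 0.497% to 1.07% elsewhere, and at 1.22% of that of Cnn3, against 0.0913% to 0.220%. All of these percentages were higher in replicate 2 than in the other 5 libraries, and those of Acta2 to Actb and Tagln to Tagln2 were the largest by FPKM.

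**Figure D2:**
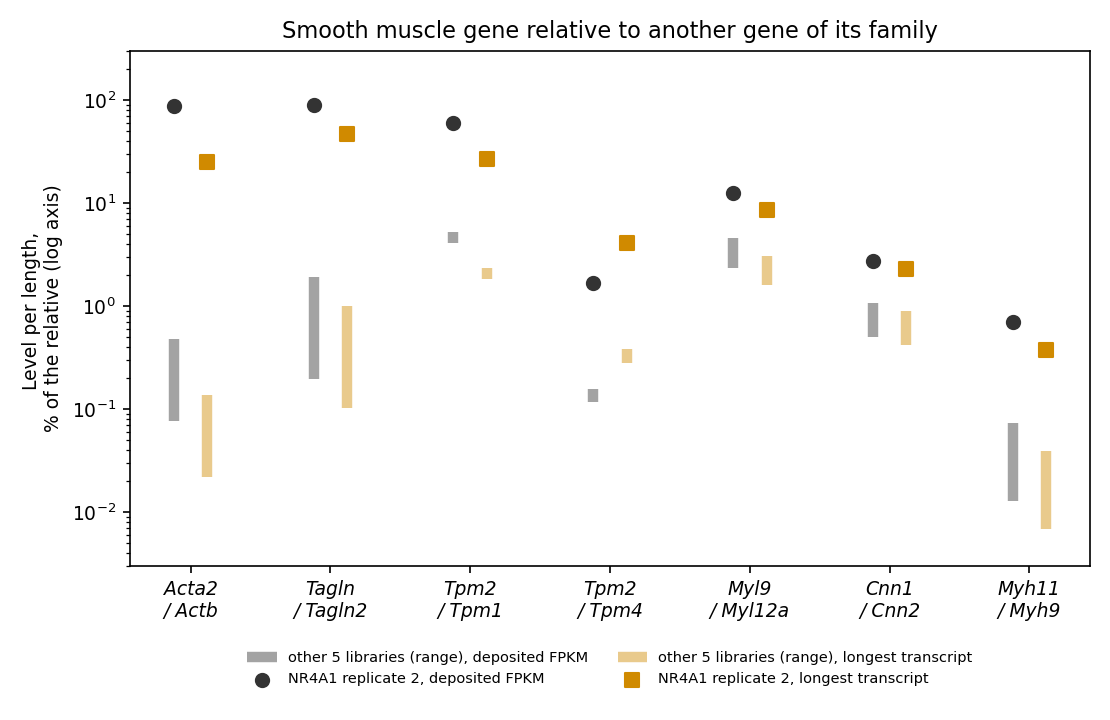
Level per length of each smooth muscle gene as a percentage of another gene of its family (log axis), in NR4A1 overexpression replicate 2 (points) and as the range over the other 5 libraries (bars), from the deposited FPKM and from the longest transcript. Acta2 and Tagln come near 100% in replicate 2 by FPKM (87.7% and 88.7%), Tpm2 is at 59.6% of Tpm1 but 1.66% of Tpm4, and Myh11 is under 1% of Myh9 by either length.

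The study compared the groups, NR4A1 overexpression against vector control, so the same genes were fitted with all 6 libraries. Of the 10 genes, 3 passed edgeR's default filter on low counts, Acta2, Tpm2 and Myl9, and Acta2 passed through the vector controls together with replicate 2. With edgeR's quasi-likelihood test (calls at 2-fold or more and an adjusted p below 0.05), 0 of these 3 genes were called, against 22 of 12941 genes called higher (0.17%) and 0 lower (0.0%). At an unadjusted p under 0.05 stood 1 of the 3, Acta2, and 836 of all 12941 genes (6.46%). Of the genes tested, 144 were higher and 17 lower at that unadjusted p with 2-fold or more. Limma-voom called 0 of the 3, with 28 genes higher and 0 lower over all. DESeq2 called 0 of the 3 but gave an adjusted p to Myl9 alone, with 71 genes higher (0.549%) and 2 lower over all. Acta2 was at 76.2 ± 131 CPM in the NR4A1 overexpression group and 0.831 ± 0.0488 CPM in the vector controls (SD, n = 3 each). On the log2 scale this was 6.51 with a standard error of 2.41 (edgeR, adjusted p = 0.694). Tpm2, at 17.6 ± 25.0 against 3.40 ± 0.261 CPM, came to 2.38 with a standard error of 1.04 (edgeR, adjusted p = 0.784). Myl9, at 6.25 ± 6.81 against 2.96 ± 0.433 CPM, came to 1.08 with a standard error of 0.729 (edgeR, adjusted p = 0.870). In all 3 genes the spread of the NR4A1 overexpression group exceeded its mean, and the libraries of both groups overlapped in all 10 genes, whereas 6.61% of the 12941 genes tested were higher in every NR4A1 overexpression library than in every control and 6.33% were lower. Without the count filter all 10 genes could be fitted, and edgeR then gave all of them the adjusted p = 0.808.

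Without NR4A1 overexpression replicate 2 the direction turned for the 3 tested genes. Acta2 was at 0.303 ± 0.142 CPM in NR4A1 overexpression replicates 1 and 3 (SD, n = 2) against 0.831 ± 0.0488 CPM in the vector controls (SD, n = 3), which was -1.41 on the log2 scale with a standard error of 0.472 (edgeR, adjusted p = 0.551). It was lower in both NR4A1 libraries than in every vector control, as were 13.7% of the 13084 genes tested. In these 5 libraries Acta2 passed the count filter through the vector controls alone, the group in which it was higher. Its lower level with NR4A1 is therefore given as a description. The counting intervals of these low counts, 0.619 to 8.77 for the 3 counts of NR4A1 overexpression replicate 1 and 6.92 to 22.2 for the 13 counts of vector control replicate 2, overlapped. Tpm2 came to -0.081 with a standard error of 0.227 (edgeR, adjusted p = 0.913) and Myl9 to -0.33 with a standard error of 0.329 (edgeR, adjusted p = 0.750). Of these 3 genes, 0 were called by edgeR, DESeq2 or limma-voom and 1, Acta2, had an unadjusted p under 0.05 in edgeR, as had 1071 of 13084 genes (8.19%), while 25 of 13084 genes (0.191%) were called higher and 3 (0.0229%) lower. The other 7 genes did not pass the count filter in these 5 libraries, where each had at most 23 reads. Fitted without the filter, 6 of them were tested and 0 were called by edgeR. Tagln had 0.298 ± 0.231 CPM in replicates 1 and 3 against 0.618 ± 0.617 CPM, and Myh11 had 0.217 ± 0.0200 CPM against 0.192 ± 0.141 CPM. Actg2 had 0 counts in all 5.

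**Figure D3:**
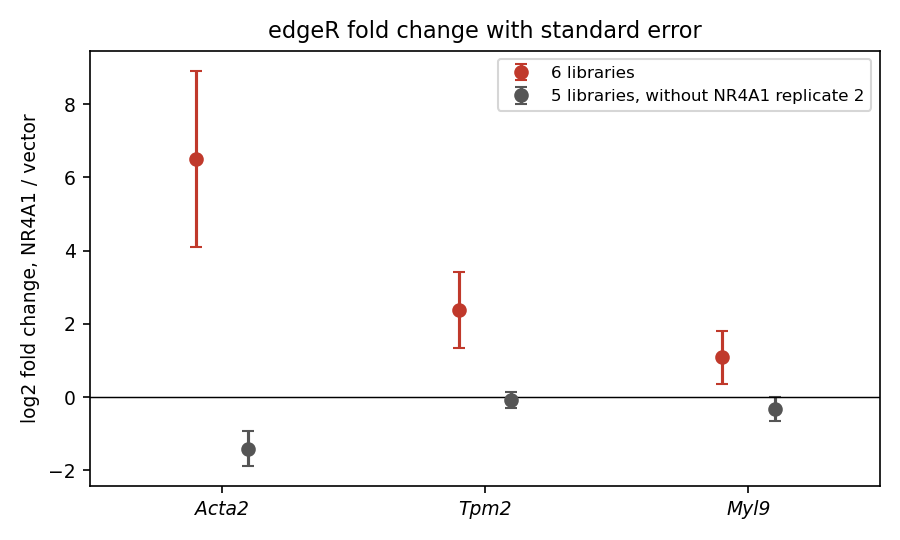
Log2 fold change of NR4A1 overexpression over vector control with its standard error from edgeR, for the 3 genes that passed the count filter, with all 6 libraries (red) and without NR4A1 overexpression replicate 2 (grey). Acta2 moves from 6.51 to -1.41, Tpm2 from 2.38 to -0.081 and Myl9 from 1.08 to -0.33.

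Most further genes of the contractile apparatus did not share the large ratios of that library. Of a list of 25 further smooth muscle and cytoskeletal genes, 23 had a count, 12 were highest in NR4A1 overexpression replicate 2 and 2 passed the 10-fold threshold, with a median ratio of 1.01. The 2 were Pgm5, a protein of adherens-type junctions, with 41 counts against at most 3 elsewhere, and Sncg, gamma-synuclein, with 35 counts against at most 3. Itga8, an integrin of smooth muscle and mesenchyme, had 12 counts against at most 2. The 3 genes of the list with the highest FPKM in replicate 2 were Csrp1, a LIM protein, with 4746 counts against 3618 to 4855, Vcl (vinculin) with 8700 against 8077 to 10158, and Flna (filamin A) with 11608 against 7152 to 10020. Csrp1 and Vcl thus lay within the range of the other libraries, and Flna lay just above it. In genes with this many counts in every library, a gain as small as the 90 counts of Lmod1 would hardly move the ratio. Of the 15 genes of this list that could be tested between the groups, 0 were called by edgeR, DESeq2 or limma-voom, with or without replicate 2, and 2 had an unadjusted p under 0.05 from edgeR in each comparison, where 6.46% and 8.19% of all genes did.

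Among 15 non-muscle actin, myosin and tropomyosin genes, 7 were highest in replicate 2 and 0 passed 10-fold, with a median ratio of 0.991. Cnn2, a calponin of non-muscle cells, had the largest ratio with 2.31, at 1804 counts against 624 to 801, followed by Actn1, alpha-actinin 1, with 1.54, at 4610 counts against 2395 to 3140. Of 28 striated muscle genes, 17 had 0 counts in replicate 2 and 0 reached 10-fold. Of the 17, 14 had 0 counts in every library, among them the cardiac actin Actc1. The largest ratio in that list was that of Tnnc1, a troponin, with 1.58, from 9 counts against at most 5.

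Srf and its coactivators switch on many contractile genes, and Srf, Mkl1 and Mkl2 were counted in all libraries, unlike Myocd. Srf had 1104 counts in NR4A1 overexpression replicate 2 against 694 to 1057 elsewhere, and the myocardin-related factors Mkl1 and Mkl2 had 563 against 400 to 548 and 1156 against 1005 to 1392. Srf and Mkl1 were highest in replicate 2 by ratios of 1.09 and 1.08, and Mkl2 was not. Of the 27 genes of the list of SRF, the myocardin family and their regulators, all had a count, 12 were highest in replicate 2 and 0 reached 10-fold, with a median ratio of 0.961. Of the list, Myocd, the only one of the 10 contractile genes in it, had the largest ratio, 4.10 against the 3-count floor, followed by Jag1, a Notch ligand, with 1.86, at 154 counts against 38 to 85, and Fhl2, a LIM cofactor, with 1.82, at 488 counts against 218 to 276. Of 24 tested genes, 0 were called by edgeR or limma-voom with all 6 libraries and 4 had an unadjusted p under 0.05 from edgeR (6.46% of all genes), while DESeq2 called 2 higher, Jag1 and Notch3, a Notch receptor (0.549% of all genes). Without replicate 2, 0 of the 24 were called by edgeR, DESeq2 or limma-voom, and 5 had an unadjusted p under 0.05 from edgeR (8.19% of all genes).

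Markers of other cell types moved in the same library, and their part in the result was not tested. In bulk RNA, more cells of a type and more RNA per cell cannot be told apart. Of 15 pericyte and mural cell markers, 7 were highest in replicate 2, and the list summed to 291 CPM there against 210 to 251 CPM in the other 5 libraries. Cspg4 (NG2) had 123 counts against at most 5 and Pdgfrb had 669 against at most 81, the latter in vector control replicate 1. The defining markers Kcnj8 and Higd1b had 0 counts in replicate 2 but also at most 1 elsewhere, and Rgs5 had 15 against at most 7. Of 16 fibroblast and myofibroblast markers, 13 were highest in replicate 2 and 4 passed 10-fold, and they summed to 3651 CPM against 1914 to 2070 CPM. Col1a2 had 4504 counts there and 284 in vector control replicate 1, against 10 to 45 in the other 4 libraries, and Thy1 had 525 counts, with 25 in vector control replicate 1 and at most 3 in the others. Dcn (decorin), the marker with the highest FPKM of that list in replicate 2, was not raised there. It had 14744 counts in replicate 2 against 14138 to 17269 elsewhere.

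Of 14 endothelial markers, 13 were highest in replicate 2 and 7 passed 10-fold, and they summed to 179 CPM against 16.3 to 19.6 CPM. Tek was not raised, with 89 counts in replicate 2 against 102 to 127 elsewhere, and Cldn5 and Sox17 had only 3 and 5 counts there. Cdh5, the cadherin of endothelial junctions, had 419 counts and Tie1, an endothelial receptor, had 192, with 0 in each of the other 5 libraries, so that they were at least 123-fold and 56.2-fold higher against 3 counts per library. Of 10 immune markers, 4 were highest in replicate 2 and 0 passed 10-fold, and the sum was 5.52 CPM against 2.14 to 3.40 CPM. Csf1r, a macrophage receptor, had 21 counts against at most 4 and Lyz2 (lysozyme) had 20 against at most 12. Ptprc, Laptm5 and Tyrobp had 0 counts in replicate 2 and at most 1 elsewhere. Of 18 epithelial markers, 3 were highest in replicate 2 and the sum, 1198 CPM, lay within the range of the other libraries, 1048 to 1351 CPM. Krt18, the partner of Krt8 in simple epithelia, had the largest ratio in that list, 8.01, with 164 counts against at most 21. Between the groups, edgeR and limma-voom called 0 genes of these marker lists in either comparison. At an unadjusted p under 0.05 in edgeR with all 6 libraries stood 1 of 4 pericyte, 1 of 12 fibroblast, 2 of 6 endothelial, 0 of 1 immune and 4 of 12 epithelial markers tested, against 6.46% of all genes. With all 6 libraries DESeq2 called 1 of 6 endothelial markers higher, Vwf, an endothelial clotting factor, where 71 of 12941 genes (0.549%) were called higher. It also called 1 of 4 pericyte markers higher, Notch3, which is the same call as in the SRF list. DESeq2 gave no adjusted p to 1 endothelial, 1 pericyte and 5 fibroblast markers in that comparison. Without replicate 2 it called S100a4, a calcium-binding protein of fibroblasts, with 475 and 493 counts in NR4A1 overexpression replicates 1 and 3 and 305, 186 and 202 with the vector, where 63 of 13084 genes (0.482%) were called higher.

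**Figure D4:**
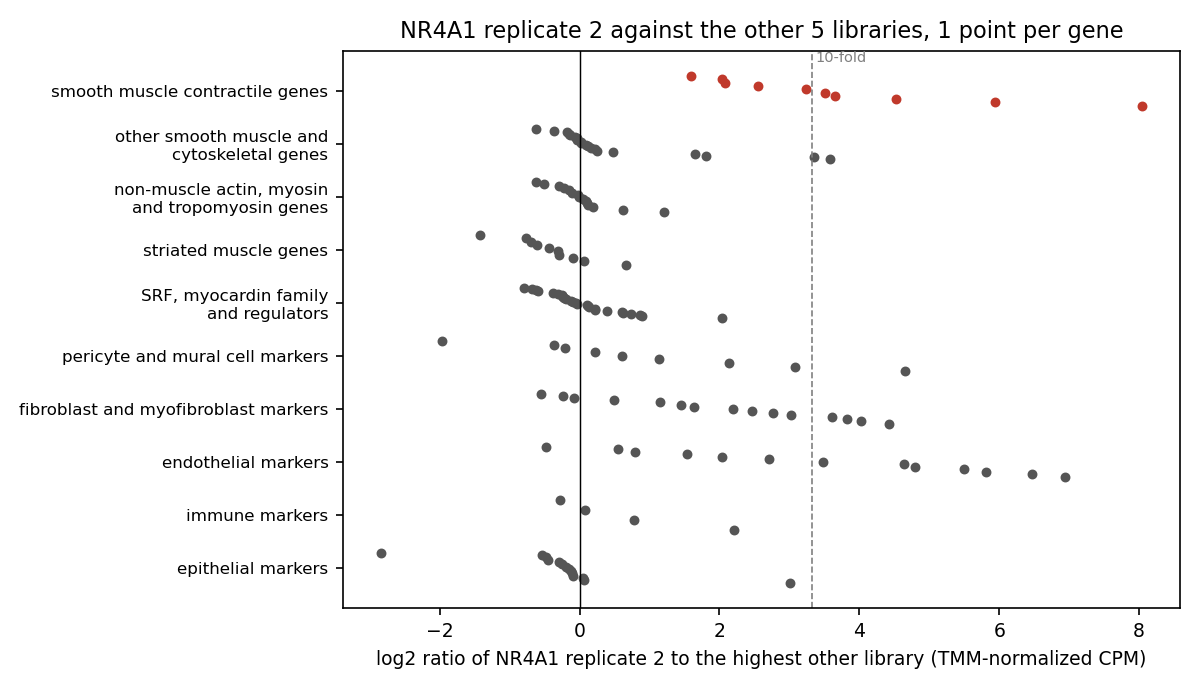
Log2 ratio of NR4A1 overexpression replicate 2 to the highest other library for each gene with more than 3 counts in a library and at least 1 in replicate 2, by list, with the 10-fold ratio as a dashed line and the smooth muscle contractile genes in red. All 10 contractile genes lie above 0, as do most endothelial and fibroblast markers, while the SRF, non-muscle, striated muscle and epithelial lists have median ratios of 0.961, 0.991, 0.699 and 0.858 over their genes with a count.

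The genes with the profile most like that of the 10 genes were found among 10934 other genes with at least 100 counts in a library, by the root mean squared difference of the centred log2 profile over the 6 libraries from the median profile of the 10. Among the 5 nearest, Scel (sciellin) had 121, 1247 and 128 reads with NR4A1 and 119, 105 and 132 with the vector, a difference of 0.217 on the log2 scale. The difference was 0.225 for Itpr2, a calcium release channel, 0.273 for Thbs1 (thrombospondin 1) and 0.281 for Pak1, a kinase of the cytoskeleton. That these 4 genes had their highest count in replicate 2 follows from how they were picked. Among the 10 genes, Tpm2 lay nearest to the median profile with 0.0977 and Acta2 farthest from it with 2.05.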

How the data were processed

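RNA from 6 MLE-12 samples was sequenced with a strand-specific kit. The submitters' processing notes name HISAT2 2.0.4 and the build GRCm38.p4, and the counting tool is not given in the sources used here. The authors deposited 1 table of raw read counts per gene and of FPKM, which divides the counts by a gene length and the library total. FPKM, counts and totals agreed for 12184 genes to within 0.00673% of the implied length. Counts were tested with edgeR 4.0.16 (quasi-likelihood, TMM, filterByExpr, Benjamini-Hochberg adjustment over all genes tested) in R 4.3.3, and calls needed a change of 2-fold or more with an adjusted p below 0.05. Standard errors are the log2 fold change over the square root of the F statistic. Limma 3.58.1, DESeq2 1.42.0, other scalings and filters, FPKM with pseudocounts of 1 and 0.1, a replicate block and leaving out each library were alternatives. The single library was compared by ratio, without a test. Ratio intervals are exact 95% binomial intervals and count intervals are exact Poisson intervals. Scripts were tested on simulated data.

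The genes and all lists were chosen with earlier results of these data known. From each list the 3 genes with the highest FPKM in NR4A1 overexpression replicate 2 and the 3 with the largest ratio could be named, and any called gene, together with the 5 genes nearest in profile, of which 1 is not reported here. Srf, Mkl1 and Mkl2, the markers at or near 0, Nkx2-1, Rgs5, Tek, Vwf and Notch3, and the relatives used for levels per length were named outside this rule, after their values were seen. Promoters were taken from RefSeq (GRCm38.p6) and transcripts from GENCODE M21.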

Additional observations from a re-analysis of the deposited data

How the results depend on the processing

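Under each alternative, 0 of the contractile genes that it tested were called in either group comparison, except that 1, Acta2, was called at an unadjusted p in both. Most alternatives tested 3 of the 10 genes, those without a filter 10 with 6 libraries and 9 with 5, a mean of at least 10 counts 7 and 3, and filtered FPKM 4 and 1. DESeq2 gave an adjusted p to Myl9 alone with 6 libraries. Adjusted p-values of edgeR, DESeq2 and limma over the alternatives that kept all 6 libraries ran from 0.555 to 0.966 for Acta2. They ran from 0.699 to 0.939 for Tpm2 and from 0.792 to 0.979 for Myl9. With a library left out of the 6 they ran from 0.550 to 0.997 for Acta2 in edgeR. For Tpm2 they then ran from 0.694 to 0.997 and for Myl9 from 0.748 to 0.997. The 0.550 and 0.748 were those without NR4A1 overexpression replicate 2. In the comparison without that replicate, adjusted p-values over the alternatives ran from 0.267 upward. With each library left out of the 6 in turn, the log2 fold change ran from -1.41 to 7.09 for Acta2, -0.32 to 1.53 for Myl9 and -0.081 to 2.88 for Tpm2, the negative values being those without NR4A1 overexpression replicate 2. In the comparison of 5 libraries the ranges were -2.00 to -1.03 for Acta2, -0.87 to 0.049 for Myl9 and -0.26 to 0.073 for Tpm2, and the last pair turned positive without NR4A1 overexpression replicate 1, where the lone NR4A1 library was assumed to vary like the controls. Over all genes, the 22 called higher with 6 libraries became 71 with DESeq2, 8 with a mean of at least 10 counts, 7 with log2(FPKM + 1), with or without a filter, 8 with log2(FPKM + 0.1), 144 at an unadjusted p and 3 to 26 with a library left out. The 0 called lower became 2 with DESeq2, 17 at an unadjusted p, 1 without a fold threshold and 0 to 3 with a library left out. With 5 libraries, the 25 called higher became 63 with DESeq2, 46 without a filter, 11 with log2(FPKM + 1), 7 with log2(FPKM + 1) without a filter, 10 with log2(FPKM + 0.1), 126 at an unadjusted p and 2 to 40 with a library left out. The 3 called lower became 0 with log2(FPKM + 1), with or without a filter, 1 with log2(FPKM + 0.1), 46 at an unadjusted p and 1 to 5 with a library left out. The cause of these moves was not tested. Same-numbered samples had correlations of -0.011, -0.046 and 0.246, which cannot decide whether the replicate numbers pair the samples. With the replicate block 5 and 14 genes were called higher with 6 and 5 libraries, with 0 contractile genes called. Of the contractile genes, 5 passed 10-fold, 7 passed 5-fold, 3 passed 20-fold, and 5 to 6 passed 10-fold with a library left out. With a floor of 1 count the ratios of Actg2 and Myocd were 34.3 and 12.3. Apart from Myl9 and Tpm2, the genes had 0 to 23 counts in the other 5 libraries, which limits their precision there.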

Other observations

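Actb, the cytoplasmic beta-actin used above as a relative of Acta2, had 13071, 14522 and 17496 reads in NR4A1 overexpression replicates 1 to 3 against 10388, 10222 and 11213 in the controls. Its 3 NR4A1 overexpression libraries lay above all 3 controls, as did those of 6.61% of the 12941 genes tested. The difference was 0.58 on the log2 scale with a standard error of 0.0848 (edgeR, adjusted p = 0.0696), which did not pass the threshold. Without replicate 2 the difference was 0.62 with a standard error of 0.0886 (edgeR, adjusted p = 0.0548), and with the count filter also dropped its adjusted p was 0.0118 in edgeR at under 2-fold. Myl12a, a relative of Myl9, had 2581, 4775 and 2950 reads with NR4A1 and 4637, 5099 and 4390 with the vector. Without replicate 2 it differed by -0.67 on the log2 scale with a standard error of 0.105 (edgeR, adjusted p = 0.0781, or 0.0222 without the count filter, at under 2-fold), and with all 6 libraries its adjusted p was 0.829 in edgeR. The percentages of Acta2 to Actb and Myl9 to Myl12a thus also carry the spread of the relative. These values were picked out after they were seen.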
